A study of Mus with 18 samples.

Results

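Cells of RAW264.7, a macrophage-like line made in the mouse with Abelson leukaemia virus, were compared after LPS followed by either of a pair of polymers, PPLG-2V-SA and POx-SA. The comparison takes 6 of the 18 libraries of the series, 3 labelled LPS followed by PPLG-2V-SA and 3 labelled LPS followed by POx-SA, and those labels alone put each library in its group. The other 12 libraries are 3 each of untreated cells, LPS alone, LPS followed by PPLG-SA and LPS followed by PPLG-4V-SA. The design text calls the compounds sialic polymers and the series title names Siglecs. The labels give no dose, no time and no meaning of the codes, so whether both polymers were given at matched doses and times is not known. They also do not say whether the 3 libraries of a group came from separate cultures. The p-values rest on the spread between libraries within the 6 groups of the series, which may be technical.

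LPS, from the outer membrane of Gram-negative bacteria, is sensed by TLR4 with its partners CD14 and MD-2. It switches on NF-kB and the genes of cytokines and chemokines and, through interferon beta, a later wave of interferon-stimulated genes. Siglecs are receptors on myeloid cells that bind sialic acid, and several of them recruit the phosphatases SHP-1 and SHP-2 to dampen such signalling. Activated macrophages also retune lipid synthesis, iron handling, lysosomes and the cell cycle.

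Total counts were 15688248, 15639379 and 19759549 in the 3 PPLG-2V-SA libraries and 13417940, 14749446 and 16033361 in the 3 POx-SA libraries. Levels below are CPM, counts scaled to the size of the library, and 3 values always stand for replicates 1, 2 and 3. The POx-SA replicates were more scattered than the PPLG-2V-SA replicates. The median over genes of the SD of log2 CPM was 0.282 with POx-SA and 0.104 with PPLG-2V-SA. The 10 most abundant genes took 13.34% to 15.68% of the counts with POx-SA and 7.009% to 8.037% with PPLG-2V-SA, and mitochondrially encoded genes 4.915% to 7.171% and 4.04% to 4.622%. Neither share overlapped between the groups, and each gave an exact two-sided permutation p of 0.1, the smallest that 3 against 3 allows. The first principal component, with 59.03% of the variance of all 18 libraries, put the 9 PPLG libraries at 39.4 to 62.8 and the other 9 at -84.0 to -22.5. The 3 POx-SA libraries therefore lay on the side of the LPS and untreated libraries. Genes that LPS induces were not uniformly higher in the libraries labelled LPS than in the untreated ones. The mean of Tnf was 839 CPM with LPS and 323 untreated, while that of Nos2 was 1253 and 2488 and that of Cxcl2 was 910 and 2631. Comparisons with LPS alone below are to be read beside these values, and the cause of the pattern was not tested.

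**Figure D1:**
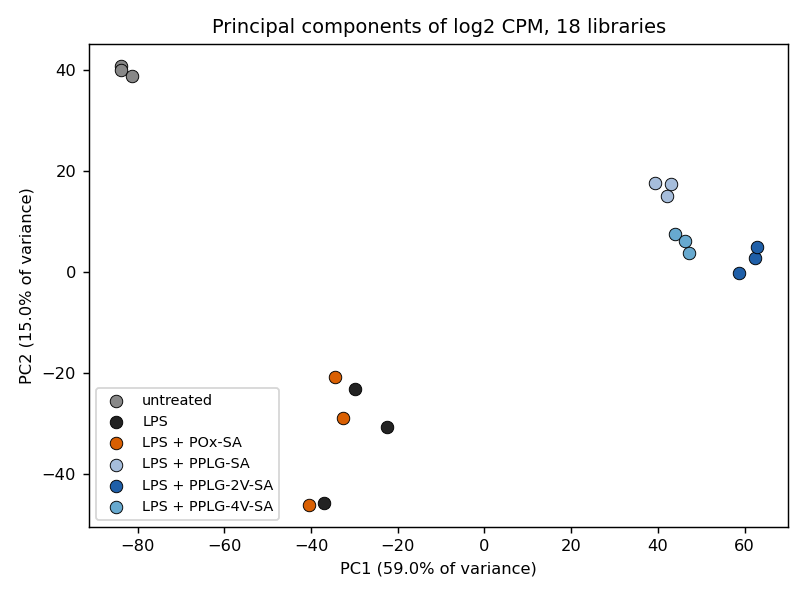
Principal components of log2 CPM of the tested genes, with PC1 on the horizontal and PC2 on the vertical axis and 1 point per library, coloured by group. The PPLG-2V-SA libraries lie at 58.8 to 62.8 on PC1, and the POx-SA libraries lie beside LPS alone at -40.5 to -32.5.

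Enough counts for a test were found for 13482 of the 35510 genes listed. A gene was called where the quasi-likelihood test of edgeR gave a Benjamini-Hochberg adjusted p below 0.05, and a log2 fold change is PPLG-2V-SA over POx-SA with its standard error (SE). At that threshold 8631 genes were called, 64.0% of those tested, of which 4373 (32.4%) were higher and 4258 (31.6%) lower with PPLG-2V-SA. The SE and p of each gene rest on a spread estimated over all 18 libraries, although POx-SA was more scattered than PPLG-2V-SA. A fit of the 6 libraries alone called fewer genes, 3525 higher and 3440 lower. So did limma voom with group weights, with 3625 and 3637. The 3 values of 1 group did not overlap those of the other in 8487 genes, 63.0% of the tested ones. Called differences beyond 2-fold numbered 2036 higher (15.1%) and 2035 lower (15.1%). Beyond 4-fold there were 655 (4.86%) and 806 (5.98%), and beyond 8-fold 234 (1.74%) and 403 (2.99%). With so many genes called, a single called gene says little, and lists are read against 32.4% and 31.6%.

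The balance of higher and lower depends on the scaling. TMM scaling, used here, centres the bulk of genes near no change, and the median log2 fold change of all genes was 0.01. On plain library totals that median was 0.30 and 5831 genes were higher and 2953 lower, so 66.4% of the called genes were higher, against 50.7% with TMM. On log2(FPKM + 1) the median was 0.24, with 5671 genes higher and 2646 lower (68.2% higher). Several lists are therefore given with the counts on plain totals as well. Counts given without them are with TMM and may also shift with the scaling.

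**Figure D2:**
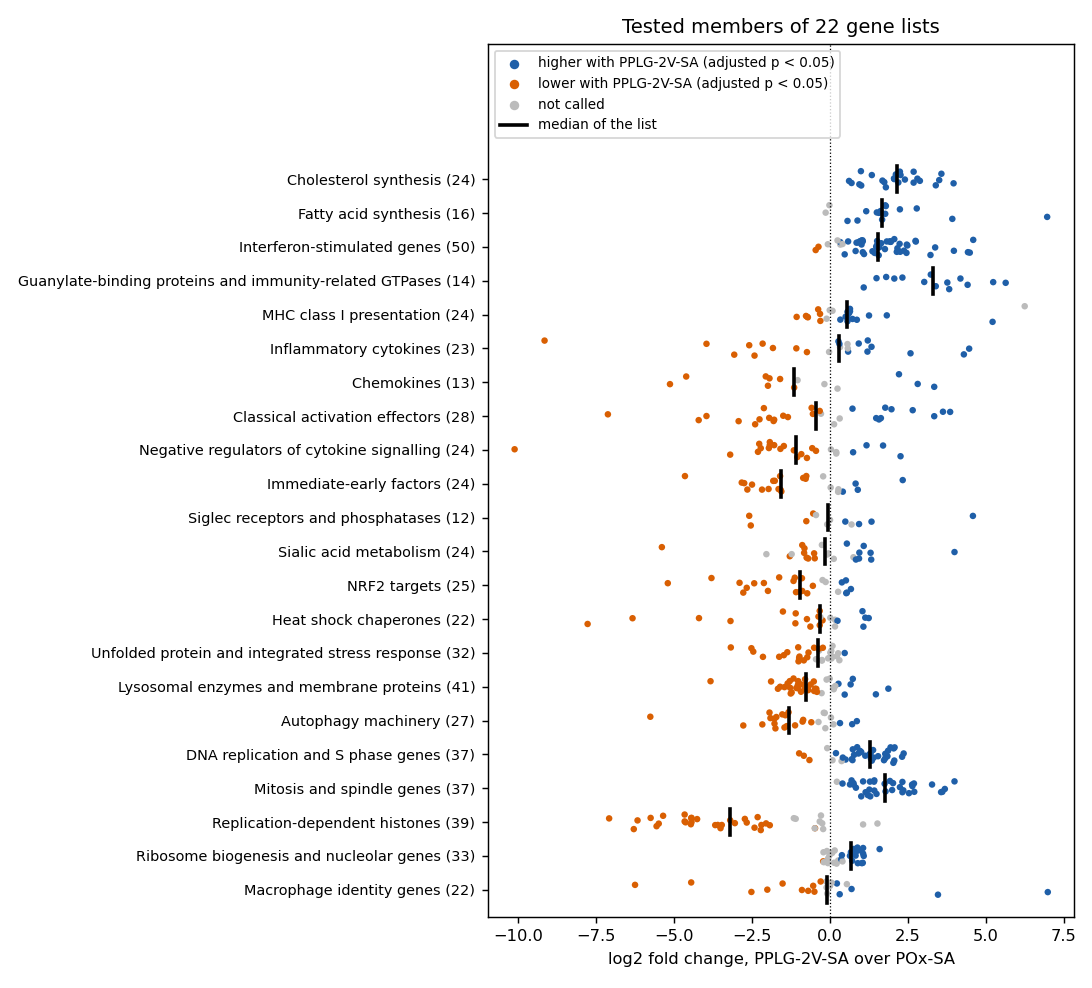
Log2 fold changes, PPLG-2V-SA over POx-SA, of the tested members of 22 gene lists (number tested in brackets), 1 point per gene, coloured by call, with the list median as a black bar and the median of all genes, 0.01, as a dotted line. Both lipid synthesis lists, the interferon lists and the cell cycle lists lie to the right, the histones furthest to the left, and fitted values of genes with counts near 0 in 1 group depend on the prior count.

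The widest contrasts were genes that were off, or nearly so, in 1 of the groups. Baiap2l1, which encodes an actin-binding membrane-curving protein, was at 911, 900 and 956 CPM with PPLG-2V-SA and at 0.445, 0.529 and 0.141 CPM with POx-SA. The log2 fold change was 11.26 (SE 0.24, adjusted p = 5.99e-16). Its means were 640 and 597 CPM with PPLG-SA and PPLG-4V-SA and 1.05 CPM with LPS alone. All 3 values with PPLG-2V-SA lay far above all 3 with POx-SA.

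Lama4, a laminin chain of basement membranes, was at 19.8, 20.5 and 23.5 CPM with PPLG-2V-SA and had no count in any POx-SA library. With the POx-SA group set to 3 counts in all, the floor used here, it was at least 292-fold higher. The olfactory receptor gene Or5v1b was at 5.65, 7.21 and 6.52 CPM against no count, at least 88.2-fold higher. In all, 7 genes had at least 5 CPM with PPLG-2V-SA and 3 counts or fewer over the POx-SA group. The other members were Lipg (endothelial lipase), Runx3 (a transcription factor), Atrnl1, Parp8 and Aldh1l1. All 7 had at least 1 CPM with PPLG-SA and with PPLG-4V-SA. For Lipg, 19.7, 20.8 and 19.1 CPM stood against 0, 0.0755 and 0.0705 CPM, a ratio of 406 with a 95% counting interval of 112 to 3350. Runx3 was at 13.8, 14.9 and 16.9 CPM against 0.0742, 0.0755 and 0.0705 CPM, a ratio of 209 (71.2 to 1010). Xk and Rmi2 were low with POx-SA but above the floor. Xk, a membrane transporter-like protein, rose by 6.74 (SE 0.41, adjusted p = 2.65e-10, and by 7.92 without POx-SA replicate 3), and Rmi2, of a complex that resolves recombination intermediates, rose by 5.42 (SE 0.27, adjusted p = 1.89e-11).

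In the other direction 19 genes had at least 5 CPM with POx-SA and 3 counts or fewer over the PPLG-2V-SA group. S100a8, a calcium-binding alarmin of myeloid cells, had no count with PPLG-2V-SA and 62.3, 35.6 and 60.5 CPM with POx-SA, and so was at least 1030-fold lower. The interleukin-1 family cytokine gene Il36g was at 0.112, 0 and 0.0453 CPM against 48.7, 22.2 and 31.2 CPM, 658-fold lower with a counting interval of 225 to 3200. Spry2, an inhibitor of receptor tyrosine kinase signalling, was at 8.61, 8.76 and 9.94 CPM with POx-SA and at 0 with PPLG-2V-SA, at least 176-fold lower. Nrp1, a co-receptor for semaphorins and VEGF, was at 12.5, 8.01 and 6.69 CPM against 0, at least 175-fold lower. Stfa3 and Csta3, stefin-type protease inhibitors of a family with near-identical copies, belonged to the same set, as did Adamts1, Morc4, Ctag2l1, Rasgrf2 and Tex101. H2bc7 had 24.1 CPM in 1 POx-SA library and 0.223 and 0 in the others, and its place in the set rests on that library. Of the 19, 13 were at the floor with PPLG-SA as well and 12 with PPLG-4V-SA, and 0 with LPS alone or untreated. Pmp22, a tetraspan membrane protein, was above the floor, at 0.112, 0.277 and 0.317 CPM against 107, 148 and 157 CPM (log2 fold change -9.10, SE 0.32, adjusted p = 3.74e-13).

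Y-linked genes, chosen after their values were seen, also separated the groups. Kdm5d, a histone demethylase, was at 68.8, 65 and 59.1 CPM with PPLG-2V-SA and at 18.3, 18.6 and 12 CPM with POx-SA. Its log2 fold change was 1.98 (SE 0.17, adjusted p = 2.29e-08), and Ddx3y, Uty and Eif2s3y were higher by 1.08, 1.01 and 0.73. The mean of Kdm5d was 63.4 CPM with PPLG-SA, 57.7 with PPLG-4V-SA, 12.7 with LPS alone and 15.3 untreated. The labels do not say whether the PPLG and the other groups were grown from the same stock of cells, so a difference between stocks and a difference between polymers cannot be told apart. This touches every comparison of a PPLG group with POx-SA, LPS alone or untreated cells, the genes near 0 counts above included.

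**Figure D3:**
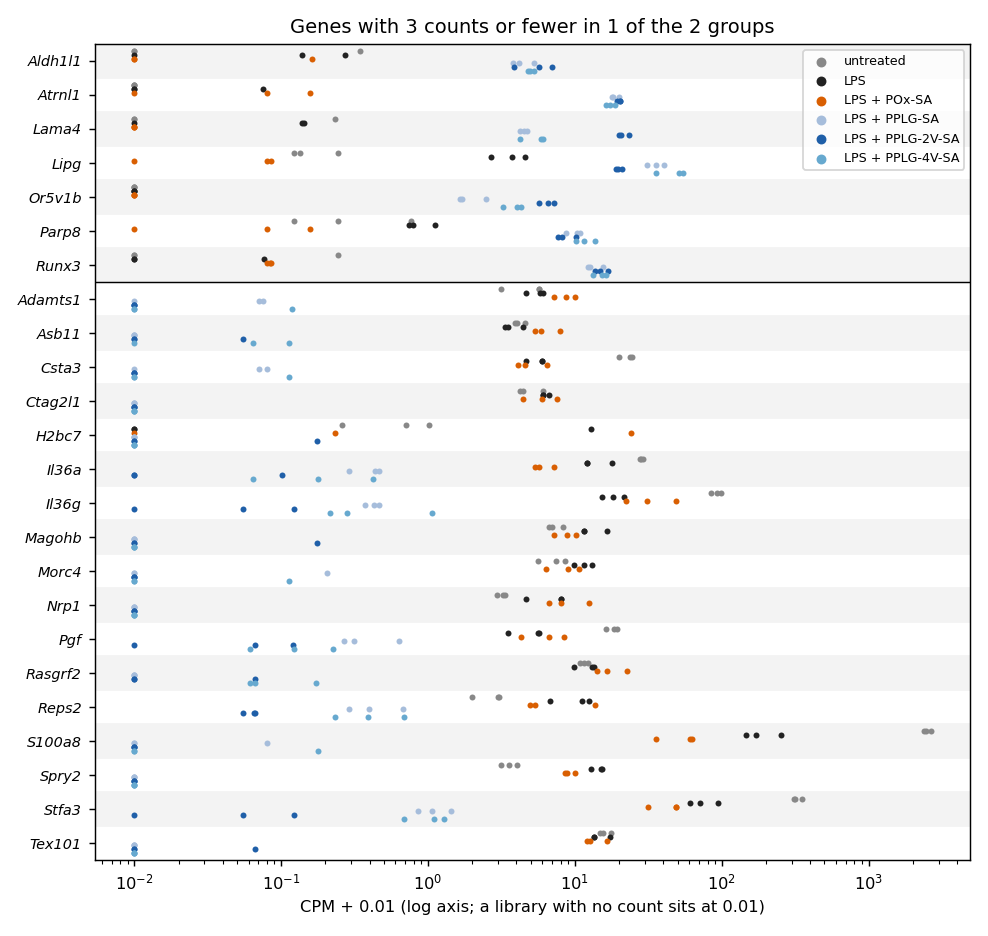
CPM + 0.01 on a log axis in each of the 18 libraries for the 24 named genes with 3 counts or fewer over 1 of the 2 groups and at least 5 CPM in the other, 7 higher (above the line) and 17 lower with PPLG-2V-SA, coloured by group. The 3 PPLG groups lie together and apart from POx-SA, LPS alone and untreated cells in nearly every row.

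Genes of lipid synthesis were higher with PPLG-2V-SA. Sterol synthesis runs through HMG-CoA and is controlled by the transcription factor SREBP2. All 24 tested cholesterol synthesis genes were higher, where 32.4% of all tested genes were, with a median log2 fold change of 2.15 against 0.01 for all genes. Summed over the list, the level was 3259 to 3293 CPM against 703 to 981 CPM. Idi1, the isomerase that makes the second isoprenoid building block, was at 166, 165 and 147 CPM with PPLG-2V-SA and at 11.3, 17.5 and 11.4 CPM with POx-SA, a log2 fold change of 3.57 (SE 0.17, adjusted p = 1.62e-11). Acat2, a cytosolic thiolase at the start of the pathway, was at 72.8, 72.5 and 73.5 CPM against 6.6, 5.51 and 8.67 CPM (3.39, SE 0.14, adjusted p = 3.19e-12). No value of one group reached those of the other for either gene.

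Lss, which closes the sterol ring, and Hmgcs1, which makes HMG-CoA, were higher by 2.26 (SE 0.09) and 2.24 (SE 0.11). Srebf2, which encodes SREBP2 and is named after its values were seen, was higher by 0.99.

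The fatty acid synthesis list, which runs from acetyl-CoA to desaturated chains, had 14 of 16 tested genes higher and 0 lower, with a median of 1.65. Its summed level was 4269 to 4396 CPM against 825 to 1037 CPM. Scd1, a desaturase that makes oleic acid from stearic acid, was at 328, 318 and 290 CPM with PPLG-2V-SA and at 1.04, 4.23 and 2.25 CPM with POx-SA. The log2 fold change was 6.96 (SE 0.29, adjusted p = 2.74e-12), with no overlap. Scd2, its close relative, was at 1836, 1925 and 1858 CPM against 91.1, 161 and 119 CPM, a log2 fold change of 3.92 (SE 0.17, adjusted p = 4.34e-12). Fads2 and Fads1, desaturases of polyunsaturated fatty acids, were higher by 2.78 (SE 0.14) and 1.62 (SE 0.09). Acaca, the acetyl-CoA carboxylase of the committed step, was higher by 2.24 (SE 0.14, adjusted p = 3.57e-10). Lpl, the secreted lipoprotein lipase, was not in the list and was at 1719, 1856 and 1832 CPM against 42.4, 102 and 75.3 CPM (4.62, SE 0.22, adjusted p = 1.55e-11).

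Against LPS alone, 23 of 24 cholesterol genes were higher and 0 lower with PPLG-2V-SA, where 61.0% of all tested genes were called, 30.8% higher and 30.2% lower. With POx-SA against LPS 5 were higher and 7 lower, where 46.3% of all tested genes were called, 22.2% higher and 24.1% lower. The corresponding counts for fatty acid synthesis were 13 and 0 of 16 with PPLG-2V-SA and 6 and 4 with POx-SA. Both comparisons use the same LPS libraries. Scd1 had a mean of 3.17 CPM with LPS alone, 145 with PPLG-SA and 136 with PPLG-4V-SA. PPLG-2V-SA exceeded PPLG-SA by 1.10 (adjusted p = 8.40e-04) and PPLG-4V-SA by 1.20 (adjusted p = 7.48e-04).

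Sterol export was mixed. Of 14 tested LXR targets and efflux genes 3 were higher and 6 lower, with a median of -0.14, and 5 were higher without POx-SA replicate 1. Mylip, a ubiquitin ligase that LXR induces, was higher by 2.76 (SE 0.18, adjusted p = 5.69e-10). Abcg4, a sterol exporter, had -2.25 (SE 0.27), and Npc1, which moves cholesterol out of lysosomes, had -0.80 (SE 0.11).

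Interferon-stimulated genes were higher with PPLG-2V-SA in 44 of 50 tested members and lower in 2. The median log2 fold change was 1.53, and 1.50 with the member near 0 counts set to its bound. The summed level was 4081 to 4286 CPM against 1450 to 1556 CPM. Ifi44 was at 305, 327 and 339 CPM against 33.7, 31.1 and 29.5 CPM (3.37, SE 0.11, adjusted p = 3.19e-13). Oas3 and Oas2, synthases of the RNase L activator, were higher by 2.23 (SE 0.08) and 2.75 (SE 0.11). In none of these genes did the groups overlap. Ifnb1, the interferon itself, was at 0.168, 0.111 and 0.227 CPM with PPLG-2V-SA and 0.297, 0.227 and 1.34 CPM with POx-SA, a log2 fold change of -1.83 (SE 0.66, adjusted p = 0.0223) whose call was lost in 7 of 16 other settings. It was -0.63 without POx-SA replicate 3, and the call was also lost without PPLG-2V-SA replicate 1 or 2, with voom and on FPKM.

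The guanylate-binding proteins and immunity-related GTPases, which attack vacuoles of intracellular pathogens, were higher in 14 of 14 tested members. Their median was 3.31, or 3.19 with members near 0 counts at their bound, and their sum was 204 to 212 CPM against 27.7 to 33.5 CPM. Gbp7 was at 51.7, 53.7 and 47.2 CPM against 1.78, 1.74 and 0.564 CPM, a log2 fold change of 5.23 (SE 0.32, adjusted p = 3.34e-10). Gbp9 and Gbp3 were higher by 4.18 (SE 0.26) and 3.39 (SE 0.17), Gbp5 by 3.82 (SE 0.26) and Irgm1 by 1.80 (SE 0.13). Both the Gbp and the Oas families have similar copies, and how shared reads were counted is not given in the sources used here.

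These interferon differences lay on both sides of LPS alone, with POx-SA further below it than PPLG-2V-SA was above it in the list medians. Of the 50 interferon-stimulated genes, 24 were higher and 10 lower with PPLG-2V-SA than with LPS, while 0 were higher and 41 lower with POx-SA than with LPS. For the GTPases the counts were 8 and 0, and 0 and 12. The median log2 fold change from LPS of the interferon-stimulated genes was 0.40 with PPLG-2V-SA and -1.28 with POx-SA. That of the GTPases was 0.81 and -2.23. Oas2 had a mean of 119 CPM with LPS alone and 62.1 untreated, and Ifi44 of 103 and 33.3. The POx-SA means were 23.6 and 31.4 CPM. Cxcl10, an interferon-induced chemokine, was at 27.8, 18.1 and 23.7 CPM against 3.41, 6.95 and 4.72 CPM (2.21, SE 0.23, adjusted p = 2.31e-07). Its mean was 24.3 CPM with LPS alone. PPLG-2V-SA differed from that by -0.07 (adjusted p = 0.794) and POx-SA by -2.27 (adjusted p = 5.23e-07).

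MHC class I presentation was divided. Of 24 tested genes 13 were higher and 7 lower, and on plain totals 13 and 3. Without PPLG-2V-SA replicate 1 or 2 the number lower was 4. H2-T24, a nonclassical class I gene, was at 314, 341 and 322 CPM with PPLG-2V-SA and at 7.05, 6.95 and 12.3 CPM with POx-SA (5.21, SE 0.19, adjusted p = 5.60e-13). Psmb9, of the immunoproteasome, was higher by 1.82 (SE 0.25) and Erap1, which trims peptides, by 1.25 (SE 0.11). Nlrc5, the transactivator of class I genes, had -1.07 (SE 0.14, adjusted p = 2.97e-06). The classical H2-D1, named after its values were seen, was lower at -0.71 (SE 0.15, adjusted p = 3.87e-04), and B2m, the shared light chain and also named so, had -0.01 (SE 0.16, adjusted p = 0.978). Class I genes are near-identical in stretches, so their counts are uncertain.

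**Figure D4:**
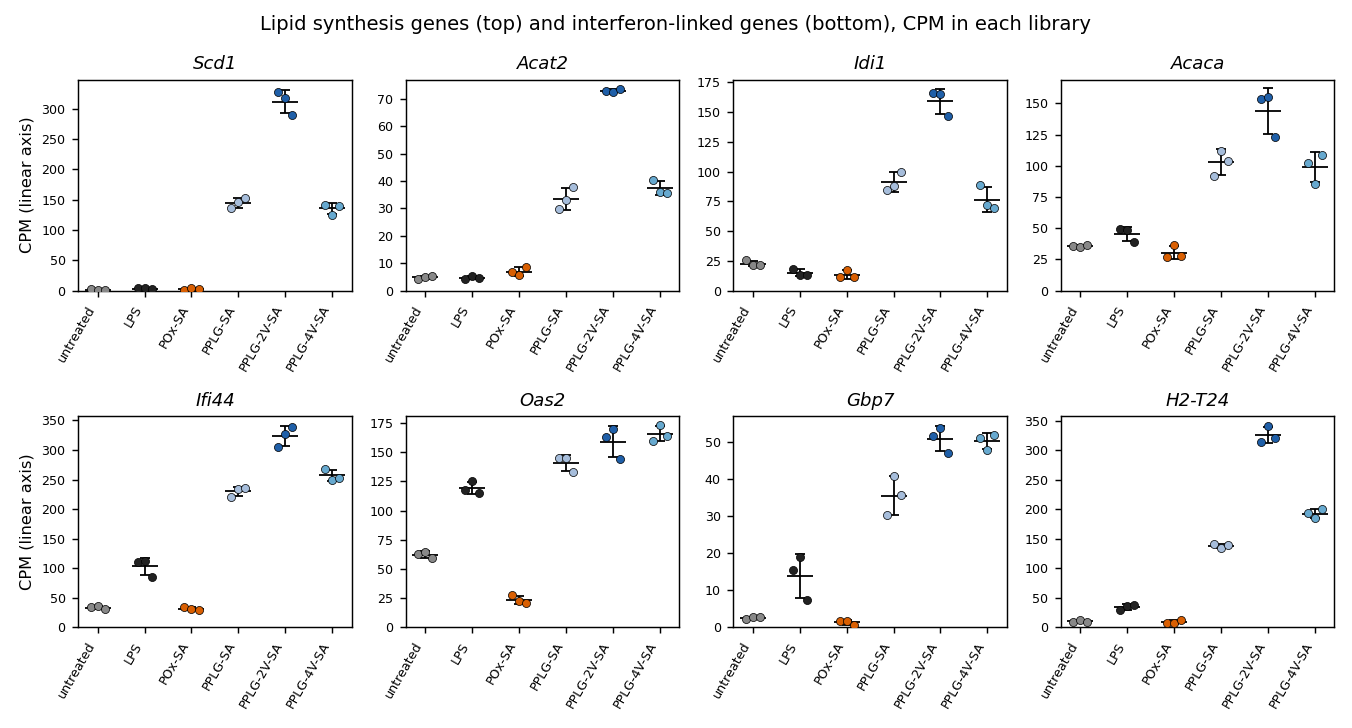
CPM on linear axes in each library of the 6 groups for 4 lipid synthesis genes (top) and 4 interferon-linked genes (bottom), with points for the 3 libraries and bars for the mean and SD. Scd1 lies at 290 to 328 CPM with PPLG-2V-SA and 1.04 to 4.23 with POx-SA, and Oas2 at 144 to 170 and 21.1 to 27.6.

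The cytokine genes showed no common direction. Of 23 tested members of the inflammatory cytokine list 10 were higher and 9 lower, with a median of 0.30. On plain totals 12 were higher and 9 lower. In a fit of the 6 libraries alone 7 were higher and 7 lower. Tnf was at 517, 451 and 509 CPM with PPLG-2V-SA and at 752, 790 and 927 CPM with POx-SA, a log2 fold change of -0.74 (SE 0.11, adjusted p = 2.29e-05). Il1b was at 33.5, 26.4 and 25.1 CPM against 16.3, 7.03 and 13.6 CPM (1.20, SE 0.21, adjusted p = 9.68e-05). Il10, the anti-inflammatory cytokine, was at 5.48, 4.66 and 5.44 CPM against 3.34, 1.36 and 2.04 CPM (1.21, SE 0.25, adjusted p = 4.25e-04). In all 3 genes the groups did not overlap.

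Il6 was at 10.1, 6.32 and 8.38 CPM against 9.72, 4.38 and 5.71 CPM, and its groups overlapped (0.32, SE 0.24, adjusted p = 0.248, with a 95% interval of -0.18 to 0.83). It passed the threshold at 0.66 without POx-SA replicate 1 and at 0.63 on log2(FPKM + 1). Il1a was higher by 0.58 (SE 0.20, adjusted p = 0.0197), but its groups overlapped and the call was lost without POx-SA replicate 2 or 3 or PPLG-2V-SA replicate 1, with voom and in the 6 libraries alone. Il12b had 0, 0 and 0.0906 CPM against 0.594, 0.0755 and 1.27 CPM, 19.1-fold lower with a counting interval of 4.81 to 166. Its groups overlapped, the POx-SA libraries held 8, 1 and 18 reads, and the fitted log2 fold change of -3.96 was -3.06 without POx-SA replicate 3 and -6.28 without PPLG-2V-SA replicate 3.

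Csf1 was higher, and Csf3, Il1rn and Osm were lower. Csf1, the survival factor of macrophages, was at 28, 27.2 and 29.4 CPM against 1.71, 0.831 and 1.27 CPM (4.46, SE 0.21, adjusted p = 1.11e-11). Csf3, which drives granulocyte production, was at 90.7, 67.1 and 79.9 CPM against 767, 488 and 745 CPM (-3.07, SE 0.17, adjusted p = 6.83e-11). Il1rn, which encodes the natural blocker of interleukin-1, was at 87.9, 75.4 and 74.1 CPM against 354, 439 and 482 CPM (-2.42, SE 0.12, adjusted p = 2.58e-11). Osm, a cytokine of the interleukin-6 family, had -2.16 (SE 0.11, adjusted p = 4.66e-11). The groups did not overlap in any of them.

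Among chemokines 3 of 13 tested were higher and 7 lower, with a median of -1.15 and a summed level of 2516 to 3061 CPM against 6801 to 10032 CPM. Cxcl2 and Cxcl3 recruit neutrophils through CXCR2. Cxcl2 was at 49.6, 40.5 and 39.5 CPM with PPLG-2V-SA and at 1003, 1014 and 1147 CPM with POx-SA (-4.61, SE 0.14, adjusted p = 1.10e-13), and Cxcl3 had -5.13 (SE 0.22, adjusted p = 3.19e-12). Ccl3 and Ccl4, which attract monocytes and T cells, had -1.99 (SE 0.17) and -2.06 (SE 0.12).

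The 3 higher ones were Cxcl10, Ccl2 and Ccl22. Ccl2, which attracts monocytes through CCR2, was at 234, 217 and 222 CPM against 31.8, 25.7 and 38.1 CPM (2.81, SE 0.14, adjusted p = 2.07e-11). Ccl22, a ligand of CCR4, was at 54.7, 49.5 and 45.9 CPM against 6.01, 2.95 and 5.78 CPM (3.34, SE 0.22, adjusted p = 5.38e-10). Ccl5 overlapped between the groups and was not called (0.24, SE 0.14, adjusted p = 0.153). It was called at 0.54 on plain totals and at 0.77 on log2(FPKM + 1).

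**Figure D5:**
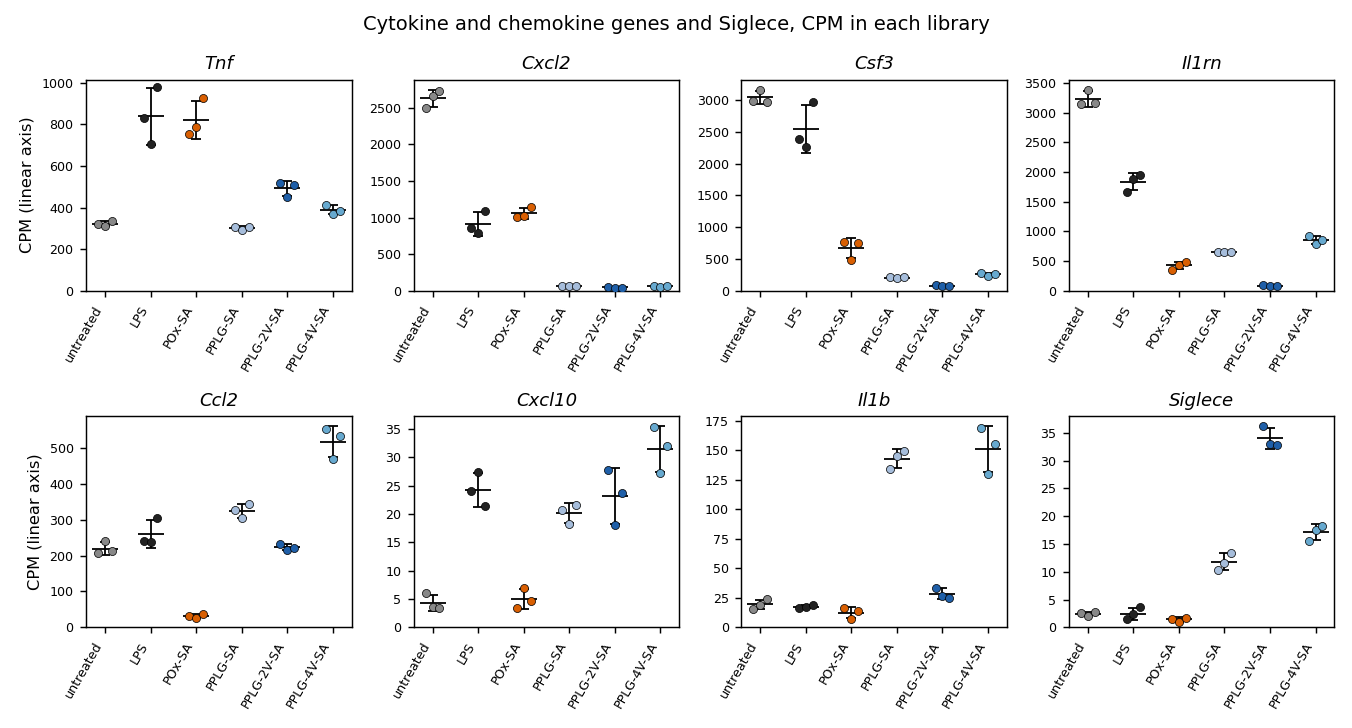
CPM on linear axes in each library of the 6 groups for 7 cytokine and chemokine genes and Siglece, with points for the 3 libraries and bars for the mean and SD. Cxcl2, Csf3 and Il1rn are lower and Ccl2, Cxcl10, Il1b and Siglece higher with PPLG-2V-SA than with POx-SA.

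Set against LPS alone, both polymers had more cytokine genes lower than higher. With PPLG-2V-SA 3 of the 23 were higher and 14 lower, and with POx-SA 3 and 16. Of the 13 chemokines 1 was higher and 10 lower with PPLG-2V-SA, and 1 and 6 with POx-SA. Ccl2 had a mean of 261 CPM with LPS alone, so the POx-SA libraries were the ones that departed from it (-3.03, adjusted p = 5.62e-11), while PPLG-2V-SA had -0.22 (adjusted p = 0.152). For Cxcl2, at 910 CPM with LPS alone, the reverse held, with -4.40 (adjusted p = 9.71e-14) for PPLG-2V-SA and 0.21 (adjusted p = 0.166) for POx-SA. Il10 had a mean of 141 CPM with LPS alone, from which PPLG-2V-SA differed by -4.76 (adjusted p = 4.65e-12) and POx-SA by -5.97 (adjusted p = 1.43e-11).

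Effector genes of classical activation were higher in 10 and lower in 15 of 28. Nos2, the inducible nitric oxide synthase, was at 194, 185 and 212 CPM against 415, 708 and 553 CPM (-1.50, SE 0.14, adjusted p = 8.14e-08). Slpi, a protease inhibitor that LPS induces, was at 4.81, 4.71 and 5.89 CPM against 555, 665 and 940 CPM (-7.12, SE 0.29, adjusted p = 2.36e-12). Saa3, an acute-phase protein, had -2.93 (SE 0.20) and Gch1, which makes the cofactor of nitric oxide synthase, -1.79 (SE 0.09). The complement gene C3 was higher by 3.62 (SE 0.15) and Hdc, which makes histamine, by 3.85 (SE 0.25).

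Alternative activation markers were 1 higher and 6 lower of 9, at mostly low levels. Msr1, a scavenger receptor, was at 242, 244 and 260 CPM against 490, 534 and 643 CPM (-1.16, SE 0.10, adjusted p = 2.47e-08). Clec7a, the beta-glucan receptor, and Tgm2, a transglutaminase, had -2.03 (SE 0.30) and -2.26 (SE 0.36). Arg1 had no count with PPLG-2V-SA and 0.0742, 0.227 and 0.0705 CPM with POx-SA, at least 2.36-fold lower, which rests on 1, 3 and 1 reads. The call was lost without POx-SA replicate 2 and on FPKM, and Mrc1 was near 0 in both groups. Egr2 was higher by 0.89 (SE 0.27, adjusted p = 0.00768), a call lost without POx-SA replicate 2 or PPLG-2V-SA replicate 1 and with voom.

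Genes of eicosanoid synthesis and response changed in both directions, 7 higher and 8 lower of 18, and 7 and 7 on plain totals. Ptgs2, the inducible cyclooxygenase, was at 435, 405 and 416 CPM against 2656, 2093 and 1264 CPM (-2.26, SE 0.24, adjusted p = 3.04e-07). Ptges, the next enzyme on the way to prostaglandin E, had -1.95 (SE 0.16), Hpgds, on the way to prostaglandin D, -2.04 (SE 0.13), and Ptgir, the prostacyclin receptor, -3.89 (SE 0.11). Among those higher, Ptger2, a receptor of prostaglandin E, and Ptgs1, the constitutive cyclooxygenase, both named after their values were seen, had 1.34 (SE 0.26) and 0.78 (SE 0.16). Inflammasome genes were 10 higher and 9 lower of 20, and 10 and 6 on plain totals. P2rx7, the ATP-gated channel that triggers NLRP3, was at 19.8, 21.3 and 17.9 CPM against 863, 806 and 788 CPM (-5.38, SE 0.10, adjusted p = 1.92e-16). Nlrp3 itself was at 131, 123 and 107 CPM against 33, 6.87 and 12.3 CPM, higher by 2.79 (SE 0.36, adjusted p = 3.25e-06) and by 3.59 without POx-SA replicate 1. Ninj1, which ruptures the dying cell's membrane, had -2.59 (SE 0.17) and Casp1 -1.11 (SE 0.13).

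The NF-kB list had 12 of 28 higher and 10 lower, and 17 and 6 on plain totals. Nfkb1 and Nfkb2, subunits made as precursors, were higher by 1.47 (SE 0.09) and 1.05 (SE 0.08), and Ikbke, a kinase of the interferon arm, by 2.07 (SE 0.14). Among the 10 lower, Nfkbid was at 25.2, 21.8 and 25.3 CPM against 65.1, 89.1 and 82.4 CPM (-1.71, SE 0.12, adjusted p = 1.59e-09). Nfkbia, the inhibitor that NF-kB itself induces, was at 285, 272 and 316 CPM against 318, 236 and 279 CPM and was not called (0.07, SE 0.11, adjusted p = 0.588), but was called at 0.35 on plain totals and 0.39 on log2(FPKM + 1). TLR4 signalling components were 6 higher and 8 lower of 23 with TMM and 11 higher and 4 lower on plain totals, so their balance turned with the scaling. Cd14 was at 777, 726 and 851 CPM against 1619, 1161 and 1624 CPM (-0.90, SE 0.12, adjusted p = 6.35e-06), and Ly96, which encodes MD-2, had -0.96 (SE 0.18). Irak3, a brake on the pathway, had -1.29 (SE 0.14), and Sigirr, another, was higher by 2.07 (SE 0.15).

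Negative regulators of cytokine signalling were mostly lower, 17 of 24, with 4 higher and a median of -1.10. Zfp36, which destabilises cytokine mRNAs, was at 212, 182 and 208 CPM against 1107, 784 and 919 CPM (-2.22, SE 0.11, adjusted p = 2.76e-11). Dusp1, a MAP kinase phosphatase, was at 6.37, 6.99 and 7.79 CPM against 78.6, 50.2 and 65.7 CPM (-3.20, SE 0.15, adjusted p = 9.44e-12). Dusp4 had -2.31 (SE 0.14), Atf3, a repressor of cytokine genes, -1.96 (SE 0.14) and Socs3, which blocks the interleukin-6 receptor, -0.74 (SE 0.10).

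Immediate-early factors were alike, 16 of 24 lower and 4 higher, with a median of -1.57 and a sum of 753 to 869 CPM against 2807 to 3332 CPM. The number higher was 1 without POx-SA replicate 2 or PPLG-2V-SA replicate 1 and 2 without POx-SA replicate 3. Klf6 was at 20, 19.4 and 21 CPM with PPLG-2V-SA and at 486, 577 and 449 CPM with POx-SA (-4.65, SE 0.12, adjusted p = 1.92e-14). The AP-1 genes Jun, Jund and Fosl2 had -2.65 (SE 0.14), -2.18 (SE 0.12) and -2.83 (SE 0.13), and Mafk, a small MAF protein, had -2.75 (SE 0.15). In none of the 5 did the groups overlap.

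Receptors for sialic acid and their phosphatases are the genes closest to the name of the polymers. With some inhibitory receptors and adaptors of other ligands they form a list of 12 tested members, of which 4 were higher and 4 lower. On plain totals 5 were higher and 3 lower. Siglece, the main inhibitory Siglec of mouse neutrophils and macrophages, was at 36.2, 33 and 32.9 CPM with PPLG-2V-SA and at 1.56, 0.907 and 1.76 CPM with POx-SA (4.58, SE 0.25, adjusted p = 6.82e-11). Siglec1, which lacks an inhibitory tail and binds sialylated pathogens, was at 84.3, 86.8 and 86.9 CPM against 46.2, 51.3 and 37.9 CPM (0.93, SE 0.13, adjusted p = 1.02e-05). Cd33 was at 113, 131 and 111 CPM against 95.9, 163 and 97.3 CPM, overlapped and was not called (log2 fold change -0.00, SE 0.16, adjusted p = 0.983, 95% interval -0.33 to 0.32). It was called at 0.25 (adjusted p = 0.0473) without POx-SA replicate 2 and at 0.47 (adjusted p = 0.0479) by limma on log2(FPKM + 1). Siglecg had no count in any of the 6 libraries.

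Siglece had a mean of 2.45 CPM with LPS alone and 2.43 untreated, and of 11.8 and 17.2 CPM with PPLG-SA and PPLG-4V-SA. PPLG-2V-SA exceeded PPLG-SA by 1.53 (SE 0.20, adjusted p = 2.54e-05) and PPLG-4V-SA by 0.99 (SE 0.19, adjusted p = 0.00204). Across these comparisons 27.9% and 12.0% of all tested genes were called. Siglec1 had means of 149 CPM with LPS alone, 47.7 untreated, 231 with PPLG-SA and 225 with PPLG-4V-SA. From LPS alone PPLG-2V-SA differed by -0.80 (adjusted p = 5.23e-05) and POx-SA by -1.73 (adjusted p = 2.45e-08). Siglec1 was also lower with PPLG-2V-SA than with PPLG-SA (-1.42, adjusted p = 7.38e-07) and PPLG-4V-SA (-1.39, adjusted p = 1.48e-06).

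Downstream, Ptpn6, which encodes SHP-1, was at 572, 567 and 633 CPM against 215, 213 and 279 CPM (1.33, SE 0.12, adjusted p = 5.93e-08). Ptpn11, which encodes SHP-2, was higher by 0.49 (SE 0.09, adjusted p = 1.74e-04), and the inositol phosphatase gene Inpp5d had -0.76 (SE 0.10). Lilrb4a and Lilrb4b, inhibitory immunoglobulin-like receptors counted in the same list but not Siglecs, were lower. Lilrb4a was at 454, 441 and 458 CPM against 2544, 2784 and 2804 CPM (-2.59, SE 0.09, adjusted p = 4.98e-13), and its near-identical neighbour Lilrb4b had -2.54 (SE 0.15). Reads of that pair may have been split between them.

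Enzymes of sialic acid metabolism were 8 higher and 9 lower of 24, and 9 and 7 on plain totals. Npl, the lyase that degrades free sialic acid, was at 33, 30.7 and 36.4 CPM with PPLG-2V-SA and at 1.26, 1.89 and 3.1 CPM with POx-SA (3.99, SE 0.25, adjusted p = 3.19e-10). St6gal1, which caps glycans with sialic acid, was at 0.224, 0 and 0.272 CPM against 6.46, 8.01 and 8.03 CPM (-5.39, SE 0.45, adjusted p = 1.33e-08). Slc35a1, the Golgi carrier of activated sialic acid, and Casd1, which acetylates it, were higher by 1.32 (SE 0.11) and 1.30 (SE 0.16). Neu1, the lysosomal sialidase, had -1.29 (SE 0.11, adjusted p = 1.57e-08). For all 5 the groups did not overlap. Npl had a mean of 24.1 CPM with PPLG-SA, 27.4 with PPLG-4V-SA and 4.38 with LPS alone, and St6gal1 of 0.0233, 0.0738 and 13.2 CPM.

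Oxidative stress genes were lower with PPLG-2V-SA. NRF2 targets were 17 lower and 5 higher of 25, with a median of -0.97 and a sum of 13591 to 16592 CPM against 48660 to 79177 CPM. That sum leans on abundant members such as Ftl1, described below, with means of 3258 CPM with PPLG-2V-SA and 24322 with POx-SA. Hmox1, which degrades haem, was at 466, 456 and 581 CPM with PPLG-2V-SA and at 5275, 7320 and 8293 CPM with POx-SA (-3.80, SE 0.22, adjusted p = 1.33e-10). Prdx1, a peroxidase, was at 557, 540 and 664 CPM against 3867, 2208 and 3416 CPM (-2.43, SE 0.17, adjusted p = 2.01e-09). Blvrb, which acts after haem oxygenase, had -2.67 (SE 0.16).

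Against LPS alone the 2 polymers stood apart here. With POx-SA 18 of the 25 were higher and 1 lower, and with PPLG-2V-SA 12 were higher and 10 lower. Hmox1 had a mean of 1125 CPM with LPS alone, from which POx-SA differed by 2.63 (adjusted p = 2.66e-08) and PPLG-2V-SA by -1.17 (adjusted p = 7.24e-05). For Prdx1, at 479 CPM with LPS alone, these values were 2.72 (adjusted p = 2.78e-09) and 0.29 (adjusted p = 0.132).

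Iron handling genes were 5 higher and 10 lower of 20. Ftl1, the ferritin light chain, was at 3052, 2859 and 3863 CPM against 16818, 26482 and 29664 CPM (-2.90, SE 0.23, adjusted p = 7.78e-09). The heavy chain Fth1 had -1.63 (SE 0.21), and both have many processed copies in the genome, which makes their counts uncertain. Slc11a1, the phagosomal iron exporter that is mutated in some mouse strains, had -2.44 (SE 0.11), while Cp, the ferroxidase ceruloplasmin, was at 177, 189 and 188 CPM against 16.7, 25 and 17.1 CPM (3.24, SE 0.18, adjusted p = 7.66e-11). Metallothioneins and zinc transporters were 3 higher and 5 lower of 13, or 6 and 4 on plain totals. Mt1 was at 370, 362 and 667 CPM against 1548, 2334 and 3045 CPM (-2.31, SE 0.29, adjusted p = 1.96e-06), and Mt2 had -2.11 (SE 0.22).

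Heat shock chaperones, cytosolic but for the mitochondrial chaperonin pair, were 13 lower and 5 higher of 22, and 9 and 7 on plain totals. Hspa1b, the inducible HSP70, was at 21.8, 22.8 and 22.4 CPM with PPLG-2V-SA and at 659, 233 and 343 CPM with POx-SA (-4.20, SE 0.39, adjusted p = 5.38e-08). It has a near-identical neighbour, Hspa1a. Its mean was 234 CPM untreated, with LPS alone 2.48, with PPLG-SA 3.02 and with PPLG-4V-SA 0.939, so PPLG-2V-SA also exceeded the other PPLG groups, by 2.91 (adjusted p = 1.04e-04) and 4.57 (adjusted p = 6.74e-06). The constitutive Hsp90ab1 was higher, at 2724, 2651 and 2613 CPM against 1174, 1128 and 1579 CPM (1.04, SE 0.14, adjusted p = 6.84e-06), and Hspd1, of that mitochondrial chaperonin, was higher by 1.24 (SE 0.12).

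Genes of the unfolded protein response were 1 higher and 17 lower of 32, and 8 higher and 13 lower on plain totals. The number higher was 0 without POx-SA replicate 1 and 2 without replicate 2. Dnajb9, a cofactor of BiP, was at 8.38, 8.54 and 8.47 CPM against 60.3, 93.9 and 76.9 CPM (-3.18, SE 0.15, adjusted p = 9.36e-12). Hspa5, which encodes BiP, was at 1394, 1396 and 1579 CPM against 3386, 8337 and 7708 CPM (-2.15, SE 0.23, adjusted p = 2.56e-07). Ppp1r15a, which ends the stress block of translation, had -2.46 (SE 0.13) and Cebpb -2.52 (SE 0.15).

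Lysosomal genes were 29 lower and 6 higher of 41, with a median of -0.78 and a sum of 9784 to 11409 CPM against 15483 to 24653 CPM. Atp6v0d1 and Atp6v1h, subunits of the proton pump, had -1.46 (SE 0.13) and -1.26 (SE 0.09). Lipa, the acid lipase that frees cholesterol from its esters, was at 159, 154 and 165 CPM against 295, 373 and 338 CPM (-1.08, SE 0.09, adjusted p = 2.77e-08). Mcoln1, a calcium channel of lysosomes, had -1.36 (SE 0.13). With PPLG-2V-SA 28 of the 41 were lower than with LPS alone and 6 higher, and with POx-SA 6 were lower and 15 higher.

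Autophagy genes were 18 lower and 3 higher of 27, with a median of -1.33. Sqstm1, an autophagy cargo receptor and also an NRF2 target, was at 673, 593 and 737 CPM against 3872, 4198 and 5670 CPM (-2.78, SE 0.16, adjusted p = 1.52e-10). Atg2a, a lipid transfer protein, Atg7, the activating enzyme, Atg14, of the lipid kinase complex, and Atg12 had -2.17 (SE 0.13), -1.91 (SE 0.11), -1.78 (SE 0.11) and -1.72 (SE 0.12). Set against LPS alone, 19 were lower and 2 higher with PPLG-2V-SA, and 4 and 15 with POx-SA.

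Genes of cell division were higher with PPLG-2V-SA. Of 37 mitosis and spindle genes 36 were higher and 0 lower, with a median of 1.75 and a sum of 4434 to 4500 CPM against 1130 to 1614 CPM. Kif20a, a kinesin of cytokinesis, was at 96.6, 92.8 and 88.4 CPM against 4.45, 6.42 and 6.62 CPM (3.99, SE 0.14, adjusted p = 3.74e-13). Ccna2, which encodes cyclin A, was at 141, 132 and 135 CPM against 9.87, 16.3 and 16.1 CPM (3.27, SE 0.15, adjusted p = 1.12e-11). Kif2c, Plk1 and Espl1 were higher by 3.56 (SE 0.12), 2.63 (SE 0.13) and 2.32 (SE 0.10).

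S phase genes were 31 higher and 3 lower of 37, with a median of 1.27. Rrm2, of the reductase that makes deoxynucleotides, was at 114, 106 and 104 CPM against 24.5, 29.1 and 25.2 CPM (2.04, SE 0.10, adjusted p = 1.78e-11). Mcm7 and Mcm10, which open replication origins, were higher by 1.77 (SE 0.12) and 1.73 (SE 0.12). The mean of Kif20a was 20.2 CPM with LPS alone and 3.11 untreated, and with PPLG-SA and PPLG-4V-SA 79.7 and 89.7. Relative to LPS, 34 mitosis genes were higher and 0 lower with PPLG-2V-SA, and 3 higher and 24 lower with POx-SA.

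Histone genes ran against the rest of the S phase programme. Of 39 tested genes in that list 30 were lower and 0 higher, with a median of -3.20, or -2.79 with members near 0 counts at their bound. A fit of the 6 libraries alone tested 18 of them and 17 were lower. H1f2, a linker histone, was at 2.24, 3.27 and 2.81 CPM against 78.5, 40.5 and 41.4 CPM (-4.26, SE 0.25, adjusted p = 1.23e-10), and H2bc4 was at 4.25, 3.16 and 3.76 CPM against 74.4, 84.7 and 87.1 CPM (-4.46, SE 0.28, adjusted p = 3.77e-10). Means of H2bc4 were 511 CPM untreated and 35 with LPS alone. Most mRNAs of this list lack a poly(A) tail and many copies are near-identical, and neither the library preparation nor the counting of shared reads is given in the sources used here.

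Ribosome biogenesis genes were 20 higher and 1 lower of 33, with a median of 0.67, and 27 and 0 on plain totals. The number lower was 0 to 2 when 1 library was left out. Ncl, nucleolin, was at 1991, 1901 and 1893 CPM against 722, 958 and 1094 CPM (1.06, SE 0.12, adjusted p = 9.66e-07), and Npm1, nucleophosmin, was higher by 0.88 (SE 0.17). Dkc1, which modifies ribosomal RNA, and the helicase Ddx21 were higher by 1.59 (SE 0.14) and 1.08 (SE 0.11). Genes of G1 and p53 were 12 higher and 12 lower of 27, and 14 and 10 on plain totals. Ccnd2 and Ccnd1, D-type cyclins, were higher by 3.07 (SE 0.18) and 1.23 (SE 0.08), and the antiproliferative Btg1 and Btg2 had -2.21 (SE 0.16) and -1.82 (SE 0.14).

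The cells bore macrophage markers in both groups, and 13 of 13 markers checked had a mean of at least 1 CPM in each. The levels were uneven, with 5 of 22 tested identity genes higher and 10 lower, and 7 and 7 on plain totals. Without POx-SA replicate 1 the number higher was 3. Adgre1, which encodes F4/80, was at 344, 376 and 369 CPM against 26.3, 36.9 and 35.8 CPM (3.46, SE 0.12, adjusted p = 3.74e-13). Maf, a transcription factor of mature macrophages named after its values were seen, was at 3.19, 5.43 and 3.81 CPM against 0, 0.0755 and 0 CPM, a ratio of 169 with a counting interval of 30 to 6690. Lyz1, a lysozyme with a close copy in Lyz2, had -4.45 (SE 0.20) and Mpeg1, perforin-2, -1.52 (SE 0.11).

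Phagocyte receptors were 11 higher and 12 lower of 32, and 13 and 11 on plain totals. Axl, which recognises dying cells, was at 33.3, 34.2 and 36.1 CPM against 1.04, 1.51 and 1.13 CPM (4.81, SE 0.16, adjusted p = 2.89e-13), and Fcgr1, the high-affinity IgG receptor, was higher by 2.65 (SE 0.18). Cd36, a scavenger receptor for lipoproteins, had -1.95 (SE 0.11). Osteoclast genes were 11 higher and 6 lower of 20, but 7 and 7 without POx-SA replicate 2 and 6 and 6 in a fit of the 6 libraries alone. Spp1, osteopontin, was at 6405, 6285 and 8055 CPM against 19066, 34082 and 31013 CPM (-2.02, SE 0.18, adjusted p = 3.33e-08). Car2, carbonic anhydrase, and Dcstamp, a cell fusion protein, were higher by 1.76 (SE 0.09) and 2.06 (SE 0.21).

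Markers of other cells were scarce, except some that dendritic cells share with macrophages. Of 18 neutrophil and mast cell markers, 12 were at 0 in both groups and both tested ones, S100a8 and S100a9, were lower, so that the list summed to 0.277 to 0.589 CPM against 36.3 to 64 CPM. Of 16 dendritic cell markers 9 were tested, 8 of them higher, Ccl22 included, and 0 lower, and 2 of the 16 were at 0 in both groups, with a sum of 822 to 1066 CPM against 508 to 969 CPM. The class II genes H2-Eb1 and H2-Ab1 were at 3.07, 5.6 and 4.67 CPM and at 2.96, 2.27 and 2.81 CPM with PPLG-2V-SA, and were higher by 3.31 (SE 0.38) and 3.91 (SE 0.50). Lymphocyte markers, 8 of the 18 found among the counted genes at 0 in both groups, summed to 4.32 to 6.03 CPM against 2.97 to 6.13 CPM. Those of fibroblasts, 4 of 13 at 0, summed to 0.61 to 1.22 against 3.63 to 7.42 CPM, and those of epithelium and endothelium, 6 of 13 at 0, to 1.61 to 2.31 against 2.95 to 4.38 CPM. Their part in the results was not tested, and fewer cells of a type cannot be told apart from less RNA per cell.

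Energy metabolism differed gene by gene. Glycolysis and hypoxia genes were 12 higher and 12 lower of 33, and 15 and 10 on plain totals. Hilpda, a lipid droplet protein induced by hypoxia, was at 9.06, 8.26 and 10.6 CPM against 199, 131 and 177 CPM (-4.18, SE 0.17, adjusted p = 1.54e-12), and Ndrg1 had -2.74 (SE 0.19). Pdk1, which shuts pyruvate out of mitochondria, was higher by 2.78 (SE 0.15) and hexokinase Hk2 by 0.88 (SE 0.09). Nuclear oxidative phosphorylation genes were 3 higher and 18 lower of 55 with TMM, 13 and 12 on plain totals and 16 and 7 on log2(FPKM + 1), so their balance turned with the scaling, and 33 were lower without POx-SA replicate 1 and 7 higher without POx-SA replicate 3. Mitochondrially encoded genes were 2 higher and 4 lower of 13. Without POx-SA replicate 2 they were 1 and 7, and 1 was higher without POx-SA replicate 3 or PPLG-2V-SA replicate 3. COX1 was at 19867, 18597 and 22152 CPM against 42975, 39246 and 36093 CPM (-0.96, SE 0.13, adjusted p = 3.32e-06). Amino acid transporter and tRNA synthetase genes were 7 higher and 8 lower of 23 with TMM and 11 and 3 on plain totals. Slc7a8, a transporter of neutral amino acids, was at 34, 35.9 and 36.7 CPM against 6.97, 6.42 and 6.62 CPM (2.41, SE 0.11, adjusted p = 8.72e-12), and Slc3a2, the partner chain of several such transporters, had -1.26 (SE 0.14).

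Some of the genes above also separated PPLG-2V-SA from its relatives, compared in the same fit. Against PPLG-SA 1980 genes were higher (14.7%) and 1785 lower (13.2%), and against PPLG-4V-SA 602 higher (4.47%) and 1015 lower (7.53%). Il1b, Il6, Il10, Ccl5 and Il1rn were lower than with either, but not every cytokine gene was. Tnf and Csf1 were higher than with PPLG-SA, by 0.70 (adjusted p = 2.38e-04) and 0.79 (adjusted p = 0.00133). Against PPLG-4V-SA neither was called (0.34, adjusted p = 0.0627, and 0.38, adjusted p = 0.127). Il1b had a mean of 28.4 CPM with PPLG-2V-SA, 143 with PPLG-SA and 151 with PPLG-4V-SA, with log2 fold changes of -2.33 (SE 0.21, adjusted p = 4.35e-07) and -2.41 (SE 0.21, adjusted p = 3.51e-07). For Il6 they were -2.49 and -2.89, for Il10 -2.21 and -2.84, for Ccl5 -2.69 and -2.78 and for Il1rn -3.04 and -3.44, and the adjusted p of each was at most 5.75e-07. Il12b was not called against PPLG-SA (-1.45, adjusted p = 0.443) or PPLG-4V-SA (-0.05, adjusted p = 0.993). In this fit Il6 and Ccl5 were called between PPLG-2V-SA and each of the other PPLG groups but not between PPLG-2V-SA and POx-SA. Both were called higher than with POx-SA under some other settings, log2(FPKM + 1) among them. Oas2 was not called against either (0.17, adjusted p = 0.205, and -0.06, adjusted p = 0.761), nor was Kif20a (0.22, adjusted p = 0.175, and 0.05, adjusted p = 0.855). Mt1 was higher by 1.28 and 2.41 (adjusted p = 0.00246 and 1.95e-05), although it was lower than with POx-SA.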

How the data were processed

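Sequencing covered 18 RNA libraries of RAW264.7 cells, grouped by the treatment in the labels, with replicate numbers from the titles. The deposited count table holds whole-number counts per gene symbol, not normalized, per its values. The authors' FPKM table holds fragments scaled to gene length and library total, per its title. Per the submitters' processing notes, the build was GRCm39 and CASAVA was used. No source used here names an aligner, a counter, an annotation, a strand setting or a library kit.

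A filter on low counts (filterByExpr, at least 10 counts and 15 in total) kept 13482 of 35510 genes, with 99.9% of counts. Counts were scaled by TMM and tested by edgeR 4.0.16 (R 4.3.3) with its quasi-likelihood F test, in 1 fit of all 18 libraries with a term per group, 12 residual degrees of freedom and a common dispersion of 0.0219. Adjustment of p-values was made over all tested genes by the Benjamini-Hochberg method. An SE is the absolute log2 fold change over the root of F. CPM use the TMM-scaled totals. TMM factors were 1.117 to 1.153 with PPLG-2V-SA and 0.8851 to 1.004 with POx-SA. Intervals against counts near the floor of 3 are exact 95% ones and cover counting error only. The replicates of each group differed by more than sampling noise in a chi-square statistic of their counts.

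The comparison, the 42 gene lists (1102 genes, 1063 matched, 45 in more than 1 list) and the rule that picks named genes were chosen with earlier results of these data known. The rule names the 12 highest and 12 lowest log2 fold changes among genes called in the fit of all libraries and of the 6 alone, with no overlap between groups and a mean of at least 5 CPM in 1 group, leaving out predicted genes and clones. Added are the 8 largest differences in CPM each way, a panel of 24 genes and the called members of each described list with the smallest p, at most 5 a list, and not every gene it names is described. Genes outside it were chosen after their values were seen, and some genes it names are not reported here.

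Simulated data (13143 genes, 200 changed) were drawn at these depths from the mean of each gene over all 18 libraries. The test recovered 32.8%, 59.7% and 90.9% of genes changed 1.5-fold, 2-fold and 4-fold, with 6 false calls. The simulation gave every group the same spread and no other group differences. Its rates may therefore not hold for this comparison, in which POx-SA was more scattered and most genes were called. Alternatives were other scalings and filters, DESeq2 1.42.0, limma 3.58.1 (voom with group weights, and log2(FPKM + 1) and log2(FPKM + 0.1)), the 6 libraries alone, a replicate block and leaving out each library. Deviations of same-numbered libraries from their group means correlated by 0.06875, 0.1668 and 0.3867 over 10921 genes, not all above 0.1, so the numbers were not taken as pairs. Those of differently numbered libraries correlated by -0.3134 to 0.2153. PPLG-2V-SA replicate 3 had 0.3867 with POx-SA replicate 3 and -0.2399 and -0.2338 with POx-SA replicates 1 and 2.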

Additional observations from a re-analysis of the deposited data

How the results depend on the processing

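The count of higher genes (4373) stayed within 1.5 times under every setting run, at 3525 to 5831. The count of lower genes (4258) left that range on log2(FPKM + 1), with 2646, and on log2(FPKM + 0.1), with 2660, and was 2953 on plain totals, a setting added after seeing the data. Leaving out each library gave 4003 to 4235 higher and 3869 to 4458 lower. The replicate numbers were not taken as pairs, a choice that does not show an absence of pairing. With the replicate block 4470 were higher and 4299 lower. Named genes kept their direction and side of the threshold in 4630 of the values computed under other settings, lost the call in 51 and gained it in 11. The sign changed in 20, all of them in 4 genes, and the cause was not tested. These 20 are counted apart from the 11, and Cd33 passed the threshold in some of them. Cd33 (-0.00) was -0.19 to 0.25 when a library was left out, 0.03 with upper quartile factors, 0.04 with voom, 0.01 with the replicate block (0.02 in the 6 libraries), 0.47 on log2(FPKM + 1), with and without a filter, 0.49 on log2(FPKM + 0.1) and 0.30 on plain totals. Mrc1 (-0.19) was -1.55 to 0.31 when a library was left out, 0.00 on unfiltered log2(FPKM + 1) and 0.08 on plain totals. Nfkbia (0.07) was -0.08 to 0.13 when a library was left out. ATP8 (-1.58) was 1.01 on log2(FPKM + 1), with and without a filter, and on log2(FPKM + 0.1). Of 84 list counts, 71 stayed within 1.5 times in the 6 libraries alone, 73 on plain totals and 66 on log2(FPKM + 1). Depth limits genes near 3 counts a group, and 3 libraries a group limit the precision of all.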
